A study of Mus musculus with 6 samples.

Results

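Granins and prohormone processing enzymes are the cargo and the tools of the dense-core secretory granule, and 10 of their genes were read from the 47069 genes of a bulk RNA-seq count table of mouse LβT2 cells. The members were fixed by symbol. They comprise 6 granins or granin-like proteins (*Chga*, *Chgb*, *Scg2*, *Scg3*, *Scg5* and *Vgf*) and 4 enzymes (*Pcsk1*, *Pcsk2*, *Cpe* and *Pam*), and each was found in the table by its Ensembl identifier.

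Granins are acidic, calcium-binding proteins that aggregate in the trans-Golgi network with peptide hormones and are packed with them into granules. They are also precursors: convertases cut them and other prohormones after pairs of basic residues, a carboxypeptidase trims the basic residues left at the new end, and an amidating enzyme can then finish the peptide. In the pituitary gonadotrope, granins are stored beside the gonadotropins, and secretogranin II (*Scg2*) is well known as a gonadotrope granule protein.

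LβT2 is an immortalized mouse gonadotrope line, used here at passage 14, so all libraries come from a single line. All cells were treated with GnRH at 2 nM for 40 min, and the series holds no untreated library. In 3 libraries the cells were fresh, lysed directly after collection, and in 3 they were stabilized with RNA-Best, a storage reagent that held them at 4°C before lysis, for no fewer than 4 days. The comparison asks whether preservation changed the measured transcript levels.

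The fresh libraries held 14477304 to 47438746 counts and the RNA-Best libraries 4909418 to 11999363, so every fresh library was deeper. Of 8 gonadotrope markers, 7 had counts in every library and *Fshb* had 0 in all of them, with a summed level of 3607 to 3644 CPM (counts scaled to a common library total) in fresh and 3075 to 3153 CPM in RNA-Best. The markers did not move together. Of the 7 tested, 4 were lower (*Cga*, *Nr5a1*, *Pitx1* and *Gata2*) and 2 higher (*Gnrhr* and *Foxl2*) in RNA-Best. Over all tested genes, 24.8% were lower and 26.0% higher. *Lhb* did not pass (0.03, edgeR adjusted p = 0.775) but was higher with an offset for exonic length (0.18, edgeR adjusted p = 0.0213). *Gata2* (-0.07) did not pass with an offset for GC content (0.03, edgeR adjusted p = 0.348). Nor did *Gata2* pass with any library other than fresh replicate 3 left out (edgeR adjusted p = 0.0625 to 0.118). *Cga* alone went from a mean of 1813 to 1426 CPM. *Prl* and *Pou1f1*, which mark other hormone cells, were at 0 in all libraries, and the 6 markers of such cells summed to at most 2.28 CPM. Of these 6 only *Tshb* was tested, and it was higher in RNA-Best (0.91, edgeR adjusted p = 0.00350). It did not pass without RNA-Best replicate 1 (0.62, edgeR adjusted p = 0.147). The summed level of 4 fibroblast markers reached at most 0.271 CPM and that of 3 immune markers 4.07 CPM. The 3 endothelial markers summed to 191 to 193 CPM in fresh and 196 to 209 CPM in RNA-Best. *Pecam1* was lower (-0.15, edgeR adjusted p = 0.0150) and *Cdh5* higher in RNA-Best (0.12, edgeR adjusted p = 0.00228). Both calls were lost without RNA-Best replicate 3 (edgeR adjusted p = 0.0969 and 0.0694), and *Kdr* did not pass (edgeR adjusted p = 0.364). The part of the endothelial markers in the results below was not tested. Whether replicate libraries stem from different cultures is not stated in the labels. The p-values therefore measure only the spread between these libraries, which may be technical.

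*Scg2*, *Chgb* and *Chga* were among the most abundant transcripts of the cells, the other granins and *Cpe* had intermediate levels, *Pcsk1* was low but counted in every library, and *Pcsk2* and *Pam* were near the detection limit. Levels were compared between genes as CPM per kb of exon, averaged over the 6 libraries. *Scg2* stood highest at 2541 CPM per kb, followed by *Chgb* at 1345, *Chga* at 691, *Scg5* at 160, *Cpe* at 75.8, *Scg3* at 42.7 and *Vgf* at 11.2 CPM per kb. A gap followed to *Pcsk1* at 0.232, *Pam* at 0.0236 and *Pcsk2* at 0.0144 CPM per kb. In fresh and in RNA-Best libraries alike, the ranges of neighbours in this order did not overlap, except for *Pam* and *Pcsk2*, which could not be ordered. The order was the same when the length of the longest transcript replaced that of all exons, although the level of *Pam* then rose to 0.0684 CPM per kb and that of *Chga* to 1011.

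**Figure D1:**
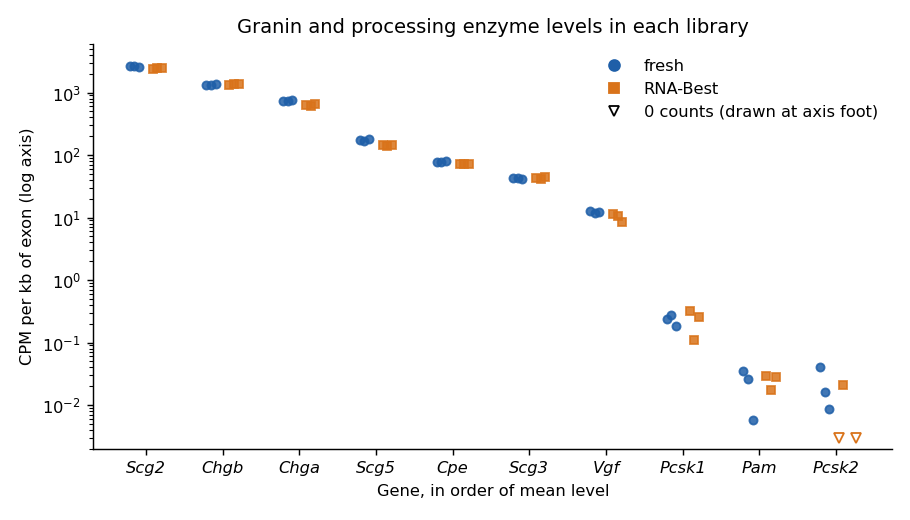
Level of each of the 10 genes in CPM per kb of exon (log axis), with a point per library, blue circles for 3 fresh and orange squares for 3 RNA-Best libraries. The granins and *Cpe* lie between 8.61 and 2658 CPM per kb, and *Pcsk1*, *Pam* and *Pcsk2* lie below 0.326; open triangles mark libraries with 0 counts.

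*Scg2* encodes secretogranin II, the precursor of secretoneurin, and lies on chromosome 1 from 79434669 to 79440120 of GRCm38. By CPM it ranked 3 among all genes of the table, and by CPM per kb it ranked 13. The fresh libraries had 6684, 6644 and 6471 CPM and the RNA-Best libraries 6017, 6226 and 6301 CPM. All RNA-Best libraries were therefore below all fresh libraries, but the lowest fresh and the highest RNA-Best value were close. RNA-Best against fresh, the log2 fold change was -0.11 (SE 0.03, edgeR adjusted p = 0.000996). With an offset for exonic length *Scg2* did not pass (-0.04, edgeR adjusted p = 0.251), and with an offset for GC content it was -0.19 (edgeR adjusted p = 1.66e-08).

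*Chgb* and *Chga* encode chromogranins B and A, the classical granins of endocrine granules. *Chgb*, on chromosome 2 from 132781278 to 132795079, ranked 11 by CPM and 20 by CPM per kb. It had 3655, 3613 and 3722 CPM in fresh and 3619, 3706 and 3790 CPM in RNA-Best libraries, and the groups overlapped. Its fitted log2 fold change was 0.00 (95% interval -0.05 to 0.06, edgeR adjusted p = 0.937). It was 0.06 with an offset for exonic length (95% interval 0.01 to 0.11, edgeR adjusted p = 0.0725) and 0.05 with an offset for GC content (95% interval -0.0020 to 0.0993, edgeR adjusted p = 0.107), so the bounds on a change of *Chgb* depend on the fit.

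*Chga*, on chromosome 12 from 102554969 to 102565028, ranked 23 by CPM and 40 by CPM per kb. It had 2037, 2039 and 2101 CPM in fresh and 1763, 1696 and 1785 CPM in RNA-Best libraries. All RNA-Best libraries lay below all fresh ones. On the log2 scale *Chga* fell by 0.25 (SE 0.03, edgeR adjusted p = 1.03e-09). The deposited counts of *Chga*, *Chgb* and *Scg2* included parts of counts in some libraries, so reads may have been shared with other places, and these values carry that uncertainty. Those of the other 7 genes were whole.

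*Scg5* encodes 7B2, the chaperone that proprotein convertase 2 needs to mature, and lies on chromosome 2 from 113776362 to 113829121. Fresh libraries had 279, 269 and 280 CPM and RNA-Best libraries 226, 223 and 227 CPM. All RNA-Best libraries were lower, and the spread within each group was small, with group means of 276 ± 6.14 CPM and 225 ± 2.08 CPM (fresh and RNA-Best, SD, n = 3 each). *Scg5* fell by 0.30 on the log2 scale (SE 0.03, edgeR adjusted p = 2.66e-10).

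*Scg3* encodes secretogranin III, which binds cholesterol-rich granule membrane and holds chromogranin A there, and lies on chromosome 9 from 75643189 to 75684056. It had 117, 116 and 113 CPM in fresh and 119, 113 and 124 CPM in RNA-Best libraries, with overlapping groups. Its log2 fold change of 0.04 did not pass (95% interval -0.03 to 0.11, edgeR adjusted p = 0.368).

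*Vgf* encodes the precursor of several neuropeptides, among them the TLQP peptides, and lies on chromosome 5 from 137026392 to 137033351. It was the least abundant granin, with 38.3, 34.8 and 36.1 CPM in fresh and 33.7, 31.4 and 25.6 CPM in RNA-Best libraries. The groups did not overlap, but RNA-Best replicate 3 was lower than the others. *Vgf* fell by 0.31 on the log2 scale (SE 0.07, edgeR adjusted p = 0.000271). Leaving out RNA-Best replicate 3 gave -0.16, which did not pass (edgeR adjusted p = 0.0931).

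*Cpe* encodes carboxypeptidase E, which removes the basic residues that convertases leave, and lies on chromosome 8 from 64592542 to 64693054. It had 205, 200 and 210 CPM (fresh) and 190.6, 190.2 and 190.6 CPM (RNA-Best). The RNA-Best libraries were nearly equal and all lower. Their coefficient of variation of 0.103% was below the 2.65% that counting error alone gives on average. *Cpe* fell by 0.11 on the log2 scale (SE 0.03, edgeR adjusted p = 0.00272). With an offset for exonic length *Cpe* did not pass (-0.05, edgeR adjusted p = 0.167).

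*Pcsk1* encodes proprotein convertase 1/3, which makes the first cuts in many prohormones, and lies on chromosome 13 from 75089826 to 75134861. It had 55, 73 and 15 counts in fresh and 16, 3 and 17 counts in RNA-Best libraries, or 1.36, 1.54 and 1.04 CPM against 1.82, 0.611 and 1.42 CPM. The groups overlapped, with the highest and the lowest value both in RNA-Best. For *Pcsk1* the log2 fold change was -0.01 with a 95% interval from -0.54 to 0.52 (edgeR adjusted p = 0.985). Changes within this interval were not excluded.

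*Pcsk2* encodes proprotein convertase 2 and lies on chromosome 2 from 143546156 to 143816285. It had 13, 6 and 1 counts in fresh and 0, 0 and 2 counts in RNA-Best libraries. The 0 counts allow up to 0.342 CPM for RNA-Best replicate 1 and 0.611 CPM for replicate 2 (3 counts per library). Over all libraries of a group, the level was 0.195 CPM in fresh (95% exact Poisson interval 0.119 to 0.302) and 0.0779 CPM in RNA-Best (0.00943 to 0.281), and these intervals overlap. Exons of *Pcsk2* share 260 bases with *Pcsk2os1* and 99 bases with *Pcsk2os2* on the opposite strand, and whether the counting used strand is not given in the sources used here, so even these counts are uncertain.

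*Pam* encodes peptidylglycine alpha-amidating monooxygenase, the enzyme that amidates peptides at a C-terminal glycine, and lies on chromosome 1 from 97795114 to 98095646. It had 17, 15 and 1 counts in fresh and 3, 1 and 4 counts in RNA-Best libraries. The level was 0.322 CPM in fresh (95% exact Poisson interval 0.222 to 0.452) and 0.312 CPM in RNA-Best (0.135 to 0.614). Both *Pam* and *Pcsk2* fell below the filter on low counts and were not tested. Such intervals and limits cover counting error only.

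The gap between the convertases and their partners was wide in both groups. Per kb of exon, the summed counts of *Scg5* exceeded those of *Pcsk2* 7078-fold in fresh libraries (95% exact binomial interval 4582 to 11590). In RNA-Best libraries the same ratio was 14615 (4044 to 120710), which rests on 2 counts of *Pcsk2*. Thus the transcript of the chaperone was abundant while that of the convertase it serves was nearly undetected. *Scg5* exceeded *Pcsk1* per kb 701-fold in fresh (595 to 832) and 575-fold in RNA-Best libraries (415 to 822). *Cpe* exceeded *Pam* 2876-fold per kb in fresh (2047 to 4179) and 2788-fold in RNA-Best libraries (1414 to 6461). With the longest transcript as the length, the ratio of *Cpe* to *Pam* was 1222 in fresh (870 to 1776) and 1185 in RNA-Best libraries (601 to 2747).

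Other enzymes of the same families were measured at higher levels. Of 7 other convertases listed, the highest per kb were *Pcsk7*, with 9.48 CPM per kb in fresh and 9.69 in RNA-Best, and *Mbtps1* (site-1 protease), with 9.47 CPM per kb in fresh and 10.4 in RNA-Best. *Furin*, the convertase of the constitutive secretory pathway, had 4.99 CPM per kb in fresh and 4.97 in RNA-Best. Per kb these 3 genes exceeded *Pcsk1* between 21.3-fold and 45.4-fold. Among carboxypeptidases, *Cpe* was higher per kb than *Cpd*, which acts in the trans-Golgi network, 4.83-fold in fresh and 3.45-fold in RNA-Best libraries.

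**Figure D2:**
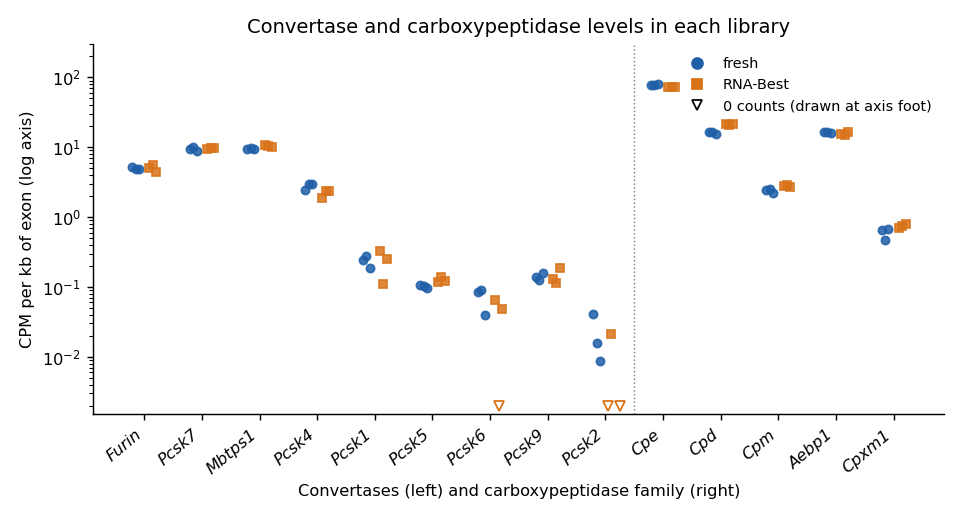
Level in CPM per kb of exon (log axis) of convertase genes (left of the dotted line) and of the carboxypeptidase family (right), with a point per library. *Furin*, *Pcsk7* and *Mbtps1* lie well above *Pcsk1* and *Pcsk2*, and *Cpe* is the highest of the genes drawn; open triangles mark libraries with 0 counts.

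Promoter sequences were examined because cAMP response elements are known in granin promoters, and the windows that hold one are shown to compare its letters and place between genes of high and low level. RefSeq windows on GRCm38.p6, from 250 bases before to 50 after the annotated start, were found for 8 of the 10 genes, in 9 windows, and not for *Vgf* and *Cpe*. The cAMP response element TGACGTCA, which reads the same on both strands, was present in 3 of the 8 genes (*Scg2*, *Chgb* and *Pcsk1*) and in 1.79% of all 32851 windows. Its 5-letter core TGACG, searched on both strands and contained in the full element, was present in 7 of the 8 genes and in 20.8% of all windows. The AP-1 site TGACTCA was in no member window and in 5.20% of all windows, and the Egr site GCGGGGGCG was in 2 genes (*Chgb* and *Pcsk2*) and in 2.91% of all windows, both strands searched. The full element began 68 bases upstream of the RefSeq start in *Scg2*, 72 in *Chgb* and 78 in *Pcsk1*, and the core in *Chga* began 44 bases upstream. The following stretches of 30 bases show these sites 5′ to 3′ on the strand of the gene, with the element or its core in capitals, at chr1:79440076-79440105 (minus strand), chr2:132781559-132781588 (plus), chr13:75089768-75089797 (plus) and chr12:102554885-102554914 (plus), in this order.
Scg2: ggctgagccggTGACGTCAgcgtggaatgc
Chgb: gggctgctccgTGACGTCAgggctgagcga
Pcsk1: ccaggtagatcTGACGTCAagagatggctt
Chga: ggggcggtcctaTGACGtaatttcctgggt
By RefSeq starts, *Scg2* and *Pcsk1* carried the same 8 letters at nearly the same distance. Their levels in fresh libraries differed 11221-fold per kb, and a link between the element and level was not tested. GENCODE starts *Scg2* and *Chgb* further upstream than RefSeq does, so these sites lie inside longer annotated transcripts.

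RNA-Best was compared with fresh by the quasi-likelihood test of edgeR, fitted to all 14736 genes past the filter on low counts, with Benjamini-Hochberg adjustment. Among all tested genes, 50.8% had an adjusted p under 0.05, 24.8% lower and 26.0% higher in RNA-Best. Of the 10 members, 8 were tested and 5 of them fell: *Chga*, *Scg2*, *Scg5*, *Vgf* and *Cpe*. None rose: 0 members were higher with edgeR, and 0 also at an unadjusted p under 0.05, with DESeq2 and with limma voom. The other 3 (*Chgb*, *Scg3* and *Pcsk1*) did not pass. In CPM, the groups did not overlap in 5 of the 8 tested members, the same 5 genes, with all RNA-Best libraries lower. Over all tested genes the groups did not overlap in 57.5%, lower in 27.1% and higher in 30.4%. The median log2 fold change of the 8 tested members was -0.11, against -0.01 for all tested genes. Tested against a 1.2-fold change (edgeR's glmTreat), 0 members and 1693 genes in all passed. In bulk RNA, fewer cells that express a gene and less RNA per cell cannot be told apart.

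**Figure D3:**
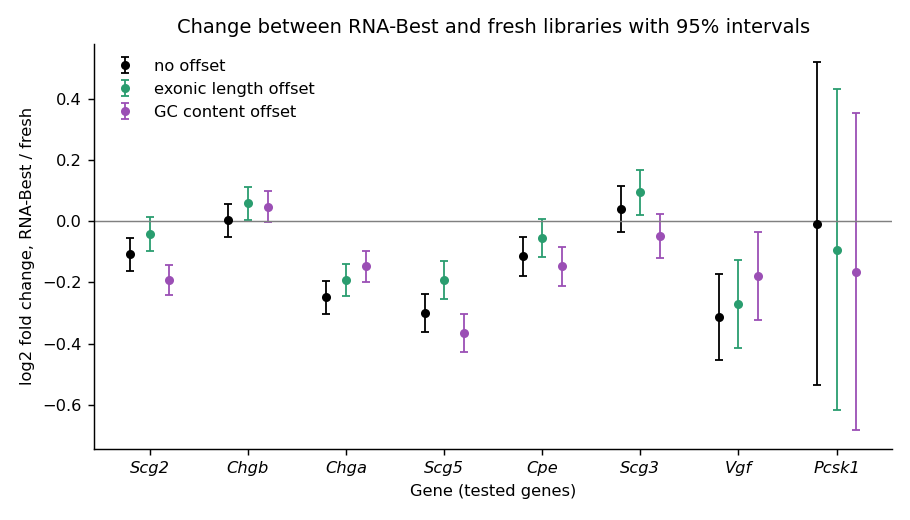
The log2 fold change (RNA-Best against fresh) of the 8 tested genes with 95% intervals from edgeR, without an offset (black) and with offsets for exonic length (green) or GC content (purple). *Chga*, *Scg5* and *Vgf* lie below 0 in all 3 fits, while the intervals of *Scg2* and *Cpe* include 0 with the length offset and *Scg3* changes side.

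Exonic length moved with the result. Among genes of 2 to 3 kb of exon, the median log2 fold change was -0.13 (quartiles -0.23 and 0.02, 2081 genes), and among those of 1 to 2 kb it was -0.18 (quartiles -0.30 and -0.01, 1841 genes). In genes of 5 to 10 kb it was 0.13. The 7 tested members other than *Pcsk1* had exonic lengths of 1.57 kb (*Scg5*) to 2.97 kb (*Vgf*), in the classes that were lower on average. *Scg2* and *Cpe* lay close to the median of their class, *Chga* and *Vgf* below its lower quartile, and *Scg3* above its upper quartile. With an offset for length in each library, *Chga* (-0.19, adjusted p = 3.78e-07), *Scg5* (-0.19, adjusted p = 4.03e-06) and *Vgf* (-0.27, edgeR adjusted p = 0.00229) still passed. *Scg2* and *Cpe* did not. *Scg3* then passed as higher in RNA-Best, at 0.09 (edgeR adjusted p = 0.0334). With the offset, 25.2% of all tested genes were lower and 15.6% higher, against 3 and 1 of the members. With an offset for GC content, the 5 genes still passed as lower, with the largest change in *Scg5* at -0.37 and the smallest in *Chga* and *Cpe* at -0.15, while *Vgf* was -0.18 (edgeR adjusted p = 0.0355).

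**Figure D4:**
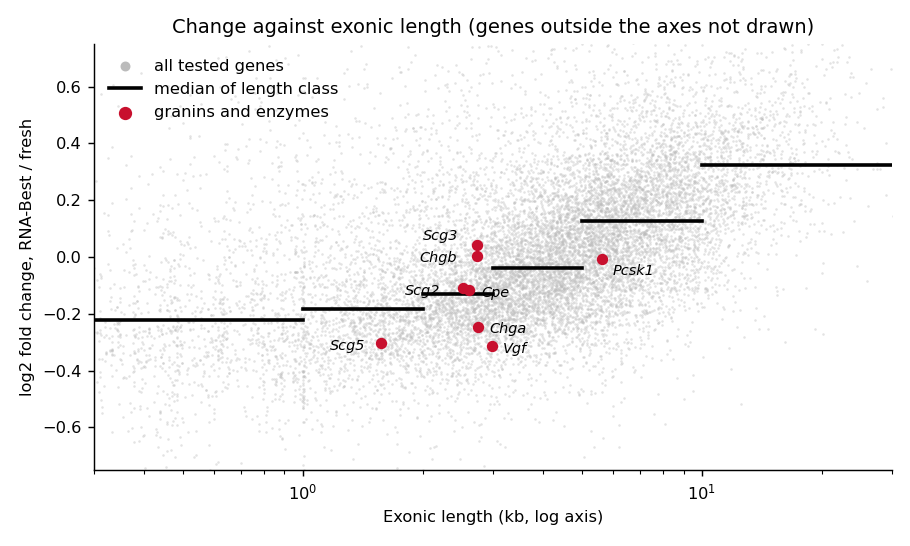
The log2 fold change (RNA-Best against fresh) against exonic length in kb (log axis) for all tested genes (grey), with the median of each length class (black lines) and the 8 tested members (red). The class medians go from -0.22 below 1 kb to 0.32 above 10 kb, and the members fall on both sides of the median of their class.

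The shares of the granins differed slightly between these libraries, and the differences in share were not tested. Together the 6 granins took 1.275% ± 0.0052 of all counts (fresh) and 1.201% ± 0.0237 (RNA-Best, SD, n = 3 each), of which *Chga*, *Chgb* and *Scg2* made up nearly all. Of the summed granin level per kb, *Scg2* contributed 53.1% ± 0.782 in fresh and 53.0% ± 0.413 in RNA-Best libraries (SD, n = 3 each), with overlapping groups. The share of *Chgb* was 27.1% ± 0.441 in fresh and 29.1% ± 0.102 in RNA-Best (SD, n = 3 each), and that of *Chga* 15.1% ± 0.307 and 13.7% ± 0.392 (SD, n = 3 each). Neither pair of groups overlapped. *Scg5* contributed 3.56% ± 0.0742 and 3.09% ± 0.0634, and *Scg3* 0.851% ± 0.0112 and 0.935% ± 0.0372, again without overlap (SD, n = 3 each). The shares add up to a whole, so a fall of some raises the others. For comparison, the CPM of 57.5% of all tested genes did not overlap between the groups.

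**Figure D5:**
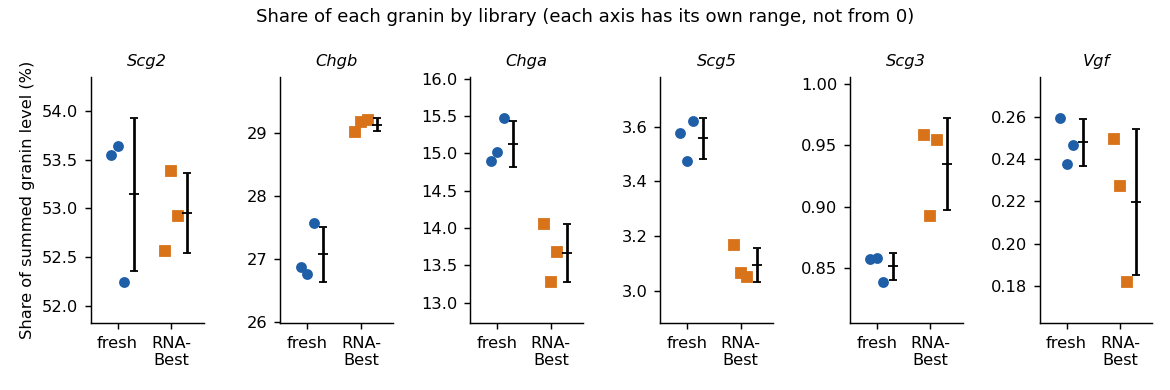
Share of each of the 6 granins in their summed level per kb (%), with a point per library and the mean ± SD of each group in black; each panel has its own axis. The share of *Chgb* is higher and those of *Chga* and *Scg5* are lower in all RNA-Best libraries, while *Scg2* and *Vgf* overlap.

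Ratios inside a library need no scaling of library size, and 3 were compared between groups. The log2 ratio of *Chga* to *Chgb* counts was -0.83 ± 0.01 (fresh) and -1.08 ± 0.05 (RNA-Best, SD, n = 3 each). The groups did not overlap and differed by -0.25 (two-sided exact permutation p = 0.1, adjusted p = 0.3 over the 3 ratios). With 3 libraries against 3, p = 0.1 is the smallest that the exact test can give. The log2 ratio of *Pcsk1* to *Scg5* differed by 0.14, with -7.74 ± 0.32 in fresh and -7.60 ± 0.81 in RNA-Best (SD, n = 3 each, two-sided exact permutation p = 0.8, adjusted p = 0.8). That of *Pam* to *Cpe* was -9.94 ± 1.43 in fresh and -9.38 ± 0.42 in RNA-Best (SD, n = 3 each, two-sided exact permutation p = 0.8, adjusted p = 0.8). These low-count ratios were too variable to compare. The ratio of *Pcsk2* to *Scg5* could not be formed in 2 libraries with 0 counts of *Pcsk2*.

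The spread between libraries of a group was set beside counting error. For *Scg2*, *Chgb* and *Chga* the coefficient of variation between fresh libraries was 1.72%, 1.51% and 1.76%, where counting error alone gives 0.242%, 0.322% and 0.430%. For these genes the spread between libraries was thus larger than counting error. In RNA-Best libraries their coefficients of variation were 2.38%, 2.30% and 2.66%. For *Pcsk1* it was 19.4% in fresh and 48.1% in RNA-Best, against 18.1% and 38.9% from counting error, and 3 libraries a group cannot show whether these differ.

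The wider pathway was measured in 71 other genes, of which 41 were tested, and 7 were higher and 16 lower in RNA-Best, with a median log2 fold change of -0.06. Over all tested genes 26.0% were higher and 24.8% lower, and the median was -0.01. The inhibitor of proprotein convertase 1/3, proSAAS (*Pcsk1n*), is a granin-like protein. It had 301 ± 9.99 CPM (fresh) and 258 ± 7.02 CPM (RNA-Best, SD, n = 3 each), fell by 0.24 on the log2 scale (edgeR adjusted p = 5.75e-08, -0.16 with the length offset and -0.15 with the GC offset) and exceeded *Pcsk1* per kb 587-fold in fresh and 513-fold in RNA-Best libraries. Transcripts of both convertase binding proteins, 7B2 and proSAAS, were thus lower in RNA-Best.

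Of the other convertases, 5 were tested, with 1 higher and 1 lower, against 26.0% and 24.8% of all tested genes. *Mbtps1* was higher at 0.11 (edgeR adjusted p = 0.0131), did not pass without RNA-Best replicate 1 (0.08, edgeR adjusted p = 0.160) and was, under the length offset, lower at -0.16 (edgeR adjusted p = 0.000674). *Pcsk4* was lower at -0.34 (edgeR adjusted p = 0.0246), which did not pass under the length offset (-0.30, edgeR adjusted p = 0.0613) or the GC offset (-0.21, edgeR adjusted p = 0.163). The call was likewise lost on leaving out fresh replicate 2 (-0.26) or RNA-Best replicate 1 (-0.22, edgeR adjusted p = 0.110 and 0.224). *Furin* and *Pcsk7* had log2 fold changes of -0.06 and -0.00126 and did not pass (edgeR adjusted p = 0.361 and 0.987), but *Furin* was lower with the length offset at -0.29 (edgeR adjusted p = 9.21e-05). Of the 4 tested carboxypeptidase relatives, *Cpd* was higher, with 135 ± 5.12 CPM in fresh and 177 ± 0.485 CPM in RNA-Best (SD, n = 3 each) and a rise of 0.36 on the log2 scale (edgeR adjusted p = 3.37e-11). It stayed higher with the length offset at 0.16 (edgeR adjusted p = 9.89e-05). The other 3 did not pass, with 0.15 for *Cpm*, -0.03 for *Aebp1* and 0.37 for *Cpxm1* (edgeR adjusted p = 0.212). *Cpxm1*, a gene of under 2 CPM, was named after its values were seen. With counts thinned to the smallest library, *Cpm* passed as higher (0.32, edgeR adjusted p = 0.0470). All 3 tested proteases of the lysosomal and aminopeptidase list were lower, against 24.8% of all tested genes. The log2 fold changes were -0.20 for cathepsin B (*Ctsb*), -0.19 for cathepsin L (*Ctsl*) and -0.16 for *Rnpep*. With the length offset they were -0.31, -0.32 and -0.30, in this order, and *Ctsl* was -0.31 with the GC offset. *Rnpep* did not pass with the GC offset (-0.08, edgeR adjusted p = 0.189) or without RNA-Best replicate 1 (-0.14, edgeR adjusted p = 0.0597).

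Genes for peptide modification and copper supply, on which *Pam* activity depends, went in both directions. Of 7 tested, 1 was higher and 3 lower, against 26.0% and 24.8% of all tested genes. The change in *Atp7a*, the copper pump of the secretory pathway, was the largest in the pathway lists: 3.69 ± 0.562 CPM in fresh and 9.41 ± 0.623 CPM in RNA-Best (SD, n = 3 each), or 1.29 on the log2 scale (edgeR adjusted p = 3.94e-11). With the length offset it was 1.08 (edgeR adjusted p = 7.57e-09). The copper chaperone that loads it, *Atox1*, fell by 0.37 on the log2 scale (edgeR adjusted p = 1.00e-10), as did *Cyb561*, the granule cytochrome that supplies electrons to *Pam*, by 0.18 (edgeR adjusted p = 1.14e-05). With the length offset *Atox1* was -0.21 (edgeR adjusted p = 2.36e-05), and with the GC offset *Cyb561* was -0.12 (edgeR adjusted p = 0.00317). *Tpst1*, which sulfates tyrosines, had a log2 fold change of -0.05 and did not pass (edgeR adjusted p = 0.356).

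Of 13 tested genes of granule membrane and biogenesis, 2 were higher and 8 lower, against 26.0% and 24.8% of all tested genes. With the length offset, 3 were higher and 6 lower, against 15.6% and 25.2% of all tested genes. *Ccdc186*, which takes part in dense-core granule maturation, was highest at 0.47 (edgeR adjusted p = 3.83e-09), and *Slc18a1*, a vesicular monoamine transporter, lowest at -0.48 (edgeR adjusted p = 0.0117), which did not pass without RNA-Best replicate 3 (-0.41, edgeR adjusted p = 0.119). The V-ATPase accessory genes *Atp6ap1* and *Atp6ap2* were lower at -0.15 and -0.12, and *Atp6ap2* did not pass with the length offset (-0.06, edgeR adjusted p = 0.146) and was -0.28 with the GC offset (edgeR adjusted p = 1.16e-09). *Rab2a* was the most abundant of the list per kb and did not pass (0.00035, edgeR adjusted p = 0.993), but with the length offset it was higher at 0.08 (edgeR adjusted p = 0.0195) and with the GC offset lower at -0.12 (edgeR adjusted p = 0.00106).

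Peptide precursors that these enzymes could process were mostly low. Of 32 listed, 31 were in the table and 8 of these had 0 counts in all libraries, and 8 passed the filter. Per kb the highest were *Nppc* (C-type natriuretic peptide), with 34.0 CPM per kb in fresh and 32.6 in RNA-Best, *Nucb2* (nesfatin), with 19.5 and 18.9, and *Pdyn* (prodynorphin), with 10.4 and 9.28. None of these 3 passed the test without an offset. *Nucb2* was lower with the GC offset (-0.20, edgeR adjusted p = 0.00101). *Pdyn* was lower without fresh replicate 2 (-0.175) or RNA-Best replicate 3 (-0.26, edgeR adjusted p = 0.0397 and 0.00904). It was also lower with a replicate block (-0.18, edgeR adjusted p = 0.0217) and with no filter (-0.19, edgeR adjusted p = 0.0110). *Gnrh1* and *Cck* were higher in RNA-Best by 0.70 and 0.60 on the log2 scale (edgeR adjusted p = 0.0204 and 0.00491), at group means of 1.09 to 3.26 CPM, and the libraries of the groups overlapped for *Cck*. *Gnrh1* did not pass without fresh replicate 2, RNA-Best replicate 2 or RNA-Best replicate 3 (0.57, 0.63 and 0.65). Its call was also lost with a replicate block (0.59, edgeR adjusted p = 0.0721) and with no filter (0.66, edgeR adjusted p = 0.0520). *Cck* did not pass without RNA-Best replicate 1 or RNA-Best replicate 3 (0.50 and 0.51), nor did either gene with DESeq2.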

How the data were processed

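Bulk mRNA of 3 fresh and 3 RNA-Best libraries was analysed. Per the submitters' processing notes and the methods, the authors aligned reads with STAR 2.5.1b to GRCm38 (GENCODE M8) and counted them per gene with featureCounts 1.5.0-p1. The values the authors deposited are estimated counts, in part not whole (9.36% to 16.3% of the values of a library, at a tolerance of 0.001) and not scaled for depth. How reads were divided is not given in the sources used here. Counts were rounded and fitted in R 4.3.3 with edgeR 4.0.16 (TMM, filterByExpr with minimum count 10, quasi-likelihood test, Benjamini-Hochberg adjustment over all tested genes); DESeq2 1.42.0 and limma 3.58.1 (voom) were alternatives. The study's own test was voom. CPM used column totals. Lengths and positions came from GENCODE M21 on GRCm38, which matched 46574 of 47069 genes; GC content was that of the longest transcript. Length and GC offsets were loess fits (span 0.5) in each library. Further alternatives were DESeq2 size factors, no filter or a 1 CPM filter, unrounded counts, thinning to the smallest library, a test against a 1.2-fold change, a replicate block, and leaving out each library.

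The fit was tested on simulated data of 14606 genes with the depths of these libraries. All genes had the same dispersion, and no trend with length or GC content was drawn. There edgeR recovered 68% of 50 genes changed 1.2-fold and 100% of 50 changed 4-fold, with 3 false calls. In the real comparison 50.8% of genes passed and the change moved with length, so these values do not give its error rate. Pairs of libraries had a chi-square per gene of 1.66 to 1.95 in fresh and 1.08 to 1.26 in RNA-Best. No pair was merged as a single library. The chi-square values do not show that the libraries came from separate cultures. The members and gene lists were chosen with earlier results of these data known. Named outside the members were, from each list, up to 3 genes of highest level per kb and the largest and smallest log2 fold change among genes that passed, as well as markers. *Kiss1* was not analysed here.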

Additional observations from a re-analysis of the deposited data

How the results depend on the processing

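Over 18 alternatives, the 5 genes called lower kept their direction. *Chga* and *Scg5* passed in all but the test against a 1.2-fold change, *Vgf* in all but that test and without RNA-Best replicate 3, and *Scg2* and *Cpe* in all but that test and both fits with the length offset. Against a 1.2-fold change, 1693 genes, 0 members and 4 other pathway genes passed, 3 higher and 1 lower. With the length offset, with or without the replicate block, 3 members were lower and 1 higher. DESeq2 and thinning to the smallest library gave 15 other pathway genes, 10 of them lower. Leaving out single libraries gave 6357 to 7273 genes, 4 to 5 members (0 higher) and 17 to 23 other pathway genes, 5 to 7 higher and 12 to 16 lower. Depth limits *Pcsk1*, *Pcsk2* and *Pam*.

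Log2 fold changes near 0 changed sign. *Chgb* was -0.0438 with no filter and -0.0130 to 0.0209 when single libraries were left out, below 0 without RNA-Best replicate 3, fresh replicate 1 (-0.000169) or fresh replicate 2 (-0.00976). *Scg3* was -0.00619 with no filter and -0.0475 with the GC offset. *Pcsk1* was 0.0140 with DESeq2, 0.0846 with the replicate block and -0.25 to 0.174 with single libraries left out, above 0 without fresh replicate 2 (0.123) or RNA-Best replicate 2. The log2 ratio difference ranged with single libraries left out from -0.181 to 0.597 for *Pcsk1* to *Scg5*, from -0.265 to 1.05 for *Pam* to *Cpe* and from -0.276 to -0.230 for *Chga* to *Chgb*. The cause was not tested.

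Libraries with the same number did not deviate together (their correlations were -0.00844, 0.0121 and -0.00770), and the labels tie the numbers to no shared culture or day, so they were not treated as pairs. With the replicate block 5 members passed.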
